A study of Mus musculus with 18 samples.

Results

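The collagen genes were followed across dissected layers and constructs in the neocortex of 7-day-old mice. A gene was taken as a collagen when its symbol had the form of a collagen chain (Col, a type number, the letter a and a chain number), which found 44 of the 54446 genes of the count table. They fall into 11 fibrillar collagens, 8 basement membrane collagens (types IV, XV and XVIII) and 25 others. RNA was sequenced in 18 libraries from 6 CD-1 mice, an outbred stock: 3 mice that received Gfp cDNA and an empty plasmid (GFP mice), 2 that received Gfp and human FOXP2 cDNA (huFOXP2) and 1 that received Gfp and mouse Foxp2 cDNA (moFoxp2). Plasmids were electroporated into the ventricular wall at E14.5. At postnatal day 7 the upper layers (L2-3), layer 4 (L4) and the deep layers (L5-6) were microdissected from 300 µm sagittal sections and pooled for each mouse, giving 1 library per mouse and layer. The labels name no promoter for the plasmids and no Cre line, they list L4 as the GFP-positive layer and both other layers as GFP-negative, and no cell sort is stated, so each library holds all cells of the dissected piece. The protocol text calls L2-3 infragranular, the word it also uses for L5-6, which goes against the sample titles; groups here follow the titles. The huFOXP2 and moFoxp2 mice are called FOXP2 mice where they form 1 arm.

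Library totals ranged from 10111149 to 23404528 counts, so that a gene with 0 counts could still have a level of up to 0.125 to 0.289 CPM (3 counts, counting error only). Levels of Foxp2 are those of the mouse gene, counted on mm10. Reads of the human cDNA count there only where they align to it, so huFOXP2 values need not be on the scale of the moFoxp2 mouse. Foxp2 stood at 5.42 to 8.61 CPM in L4 of GFP mice and at 33.4, 64.9 and 34.4 CPM in L4 of the FOXP2 mice (log2 difference 2.75 ± 0.30 SE, edgeR adjusted p = 0.0247). It was also at 20.3 to 51.5 CPM in L2-3 of FOXP2 mice against 1.76 to 6.62 CPM in GFP mice (2.78 ± 0.51, adjusted p = 0.0829), a layer whose cells the labels call GFP-negative. In L5-6 it was at 52.7 to 68.6 CPM in GFP mice and at 39.7, 77.9 and 69.6 CPM in FOXP2 mice, which overlapped (0.02 ± 0.23, adjusted p = 0.976). Of 11 markers of layer 5-6 neurons, a list that holds Foxp2 itself, 10 were higher in L5-6 than in L2-3. Of 6 markers of layer 4 neurons 5 were higher in L4 than in L2-3. Against L4, L5-6 had 2 of these 6 lower and 1 higher (median -0.21), and against L2-3 it had 3 higher and 1 lower. Of 8 markers of layer 2-3 neurons, 6 were lower in L5-6 than in L2-3 and 3 were higher in L4 than in L2-3. Over all genes, 21.3% were lower and 20.5% higher in L4 than in L2-3, and 21.9% lower and 21.6% higher in L5-6 than in L2-3. In L5-6 against L4 the shares were 19.7% lower and 21.9% higher. In a piece of tissue, fewer cells of a type and less RNA per cell cannot be told apart, here and in all values that follow.

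Collagens are secreted or membrane proteins whose chains wind around each other into a helix. Fibrillar collagens such as types I, III and V build the tough fibres of connective tissue, which in the brain lie mainly in the meninges and around large vessels. Type IV collagen forms the sheet-like network of basement membranes, which surround brain vessels and line the brain's outer surface below the meninges. The remaining chains include the beaded filaments of type VI, the collagens that attach to the surface of fibrils (FACIT collagens: types IX, XII, XIV, XVI, XIX, XX and XXII here), short-chain network collagens (VIII and X) and membrane-spanning collagens (XIII, XVII, XXIII and XXV), some of which are made by neurons or glia.

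The start regions of 5 members are shown because they carry the contrasts described here: Col1a2 and Col3a1, fibrillar chains that were highest in L2-3, Col24a1, a fibrillar chain that was highest in L5-6, and Col4a1 and Col4a2, a head-to-head pair that changed together. Each window runs from 250 bases before to 50 bases after the RefSeq start (GRCm38.p6), 5′ to 3′ on the gene's strand. Capitals mark the motif CCAAT or, for the same motif on the opposite strand, ATTGG.
Col1a2: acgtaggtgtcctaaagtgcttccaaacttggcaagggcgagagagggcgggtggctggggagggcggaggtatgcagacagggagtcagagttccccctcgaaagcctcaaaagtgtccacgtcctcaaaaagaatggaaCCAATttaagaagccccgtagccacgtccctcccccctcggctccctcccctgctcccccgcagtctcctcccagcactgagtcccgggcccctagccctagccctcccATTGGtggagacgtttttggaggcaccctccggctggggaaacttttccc
Col3a1: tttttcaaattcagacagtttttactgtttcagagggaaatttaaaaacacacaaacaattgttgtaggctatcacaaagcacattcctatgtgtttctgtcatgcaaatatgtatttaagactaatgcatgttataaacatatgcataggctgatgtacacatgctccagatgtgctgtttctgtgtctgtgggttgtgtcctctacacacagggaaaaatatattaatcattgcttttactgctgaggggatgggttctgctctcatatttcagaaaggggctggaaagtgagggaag
Col24a1: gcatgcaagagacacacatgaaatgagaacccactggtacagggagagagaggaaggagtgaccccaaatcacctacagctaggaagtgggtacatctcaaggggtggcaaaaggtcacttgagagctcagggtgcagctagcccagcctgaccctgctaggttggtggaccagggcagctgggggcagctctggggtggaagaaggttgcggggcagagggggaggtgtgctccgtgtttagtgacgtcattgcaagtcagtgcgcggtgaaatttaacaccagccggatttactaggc
Col4a1: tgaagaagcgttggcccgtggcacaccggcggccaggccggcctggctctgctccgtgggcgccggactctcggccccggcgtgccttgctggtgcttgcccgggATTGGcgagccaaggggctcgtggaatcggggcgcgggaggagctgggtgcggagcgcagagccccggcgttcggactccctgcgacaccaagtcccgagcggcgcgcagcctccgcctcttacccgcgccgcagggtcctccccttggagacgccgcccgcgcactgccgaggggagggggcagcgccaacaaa
Col4a2: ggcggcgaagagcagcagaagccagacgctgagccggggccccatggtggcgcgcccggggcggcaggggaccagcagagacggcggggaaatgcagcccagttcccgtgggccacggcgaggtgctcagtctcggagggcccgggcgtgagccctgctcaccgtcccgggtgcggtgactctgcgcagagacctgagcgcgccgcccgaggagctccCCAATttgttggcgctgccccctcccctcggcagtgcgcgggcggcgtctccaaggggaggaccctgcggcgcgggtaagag

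The windows lie at chr6:4505368-4505667 (plus strand) for Col1a2, chr1:45311288-45311587 (plus strand) for Col3a1, chr3:145292222-145292521 (plus strand) for Col24a1, chr8:11312777-11313076 (minus strand) for Col4a1 and chr8:11312555-11312854 (plus strand) for Col4a2. The windows of Col4a1 and Col4a2 overlap by 78 bases on opposite strands, so the genes start next to each other and run apart. The window of Col1a2 held 1 CCAAT on each strand, those of Col4a1 and Col4a2 held 1 each, and those of Col3a1 and Col24a1 held none. RefSeq's table gave 38 windows for 35 of the 44 members. CCAAT was present on either strand in 13 of the 38, against 37.4% of 32851 windows of all genes. The letters GGGCGG, on either strand, were present in 23 of 38 against 35.7% of all windows, and TATAAA in 5 of 38 (Col3a1, Col10a1, Col11a2, Col13a1 and Col17a1) against 13.6%. These are letter matches within 1 fixed window, given as a description.

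Collagen RNA was most abundant in L2-3. Summed over the 11 fibrillar genes, the level was 371, 1116 and 1828 CPM (lowest, median and highest of 6 mice) in L2-3, 53.8, 65.7 and 103 CPM in L4 and 65.9, 89.7 and 145 CPM in L5-6. The basement membrane sum was 721, 1295 and 1694 CPM in L2-3, 297, 361 and 406 CPM in L4 and 360, 380 and 550 CPM in L5-6. The other collagens summed to 286, 450 and 751 CPM in L2-3, 148, 176 and 198 CPM in L4 and 172, 223 and 328 CPM in L5-6. In the fibrillar and basement membrane sums the lowest L2-3 library lay above every library of the other layers. The sums of the other collagens overlapped between L2-3 and L5-6, whose highest library, that of GFP mouse 1, exceeded the lowest of L2-3, also from GFP mouse 1.

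To compare genes with each other, CPM was divided by the length in kb of a gene's exons, joined over all its annotated transcripts. That length can exceed the length of the RNA present (it was 12.43 kb for Col1a2 and 6.563 kb for Col1a1). Ranks of genes and shares of classes on this scale therefore depend on the annotation. On that scale fibrillar chains made up 29.7% ± 5.19 (SD, n = 6) of collagen RNA in L2-3, 8.93% ± 1.94 in L4 and 9.86% ± 1.23 in L5-6. Basement membrane chains made up 48.8% ± 3.87, 57.2% ± 1.96 and 51.9% ± 2.92. The other chains made up 21.5% ± 3.45 in L2-3, 33.9% ± 2.23 in L4 and 38.2% ± 2.29 in L5-6. The most abundant chain per kb was Col4a1 in each layer, with a mean of 88.0 CPM per kb in L2-3, 24.3 in L4 and 28.05 in L5-6, followed by Col4a2 with 58.3, 19.4 and 21.9. Next in L2-3 came Col1a1 (37.03 CPM per kb), Col1a2 (35.5) and Col3a1 (26.1), whereas in L5-6 the next was Col9a3 (17.1), a type IX chain, with Col9a2 at 4.91. At the low end, Col10a1 and Col17a1 had at most 9 counts in any library and did not enter the tests, and Col2a1 and Col8a2 had 0 counts in 1 library each.

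**Figure D1:**
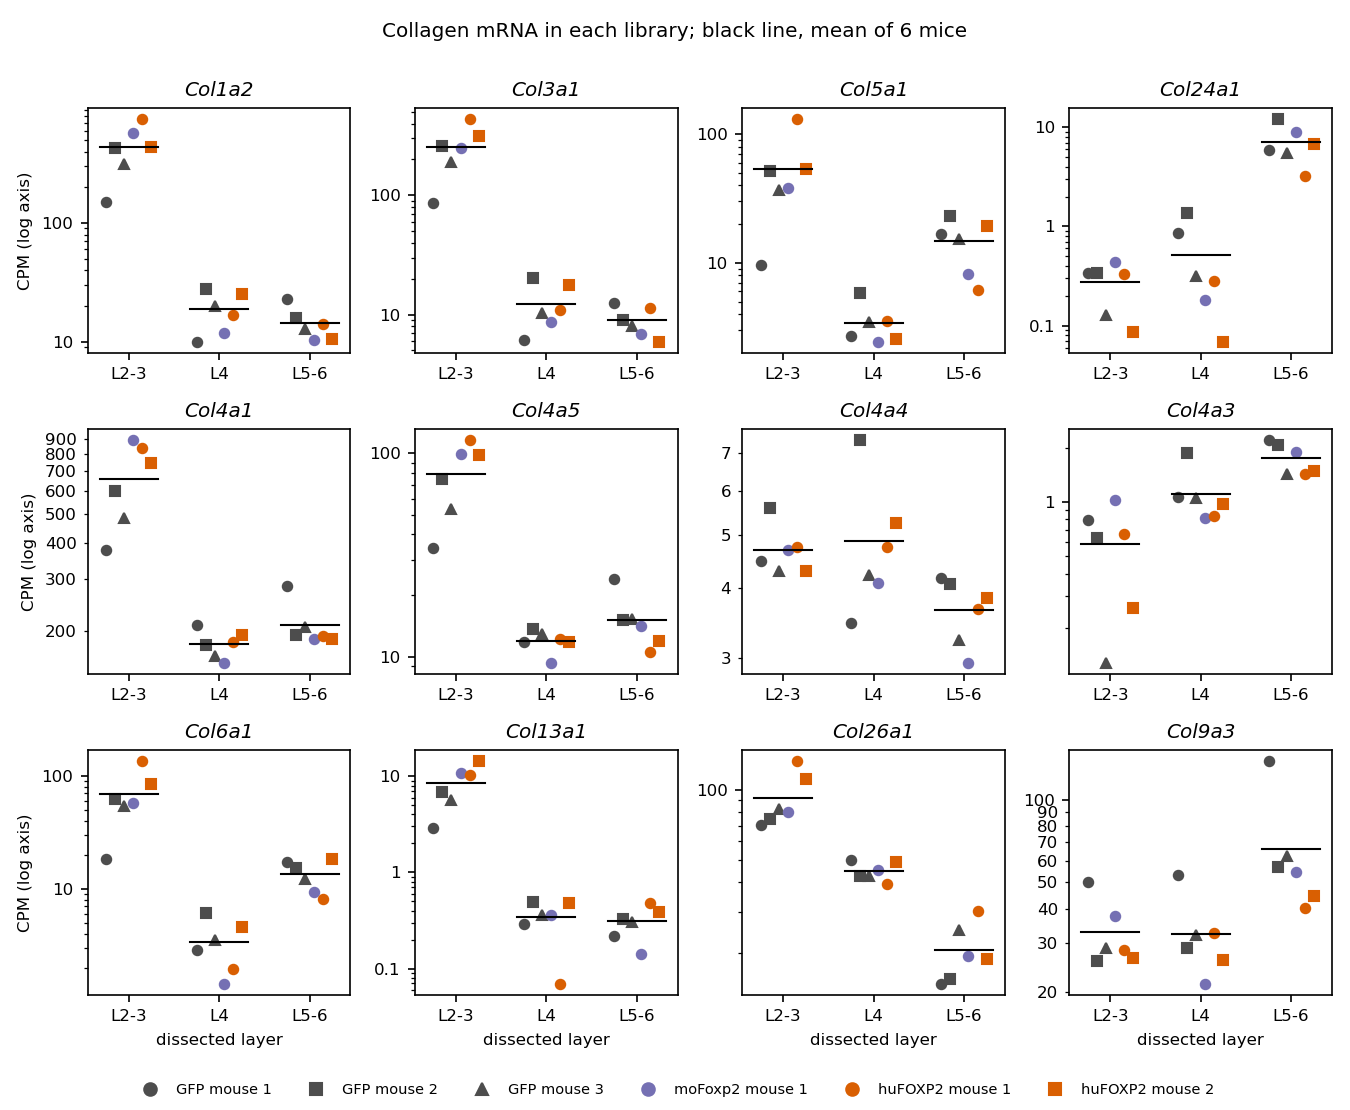
Level of 12 collagen genes in each library (CPM, log axis) by dissected layer; colour and shape mark construct and mouse, and the black line is the mean of 6 mice. Col1a2, Col3a1, Col4a1, Col4a5, Col6a1 and Col13a1 were highest in L2-3 in each mouse, while Col24a1, Col4a3 and Col9a3 were highest in L5-6 in each mouse.

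Layers were compared within mice, with all 18 libraries in a fit. Of the 42 members tested, 30 were lower and 2 higher in L4 than in L2-3, beside 21.3% of all 15952 genes tested called lower and 20.5% called higher. The median log2 difference of the 42 was -1.75, against 0.04 over all genes. In L5-6 against L2-3, 27 were lower and 6 higher (all genes: 21.9% lower, 21.6% higher), with a median of -1.34 against 0.00. In L5-6 against L4, 15 were higher and 6 lower (all genes: 21.9% higher, 19.7% lower), with a median of 0.38 against 0.01. These values average both arms. In GFP mice alone the collagen median was -1.25 for L4 minus L2-3 and -0.82 for L5-6 minus L2-3, and in FOXP2 mice alone -2.19 and -1.76.

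Among the fibrillar collagens, 8 of 11 were lower and 0 higher in L4 than in L2-3 (median -1.80), and 6 were lower and 2 higher in L5-6 than in L2-3 (median -0.92). Col1a1 and Col1a2 encode the chains of type I collagen, and Col3a1 that of type III. Col1a2 (chromosome 6, 4504814 to 4541544, mm10) was at 150, 431 and 312 CPM in L2-3 of GFP mice 1, 2 and 3, at 749 and 438 CPM in huFOXP2 mice 1 and 2 and at 570 CPM in the moFoxp2 mouse. In L4 its level was 10.02, 28.02 and 19.96 CPM in the GFP mice, 16.9 and 25.4 CPM in the huFOXP2 mice and 11.8 CPM in the moFoxp2 mouse. In L5-6 it was 22.7, 15.9, 12.7, 14.2, 10.5 and 10.2 CPM in the same order. Every L2-3 library was thus above every library of the deeper layers, and the log2 difference was -4.45 ± 0.25 (SE, edgeR adjusted p = 3.296e-08) for L4 minus L2-3 and -4.84 ± 0.26 (adjusted p = 6.273e-09) for L5-6 minus L2-3. Col3a1 (chromosome 1, 45311538 to 45349706) ran from 86.6 to 434 CPM in L2-3, from 6.16 to 20.4 CPM in L4 and from 5.94 to 12.6 CPM in L5-6, with log2 differences of -4.28 ± 0.24 and -4.73 ± 0.25. Col1a1 (chromosome 11, 94936224 to 94953042) ran from 75.2 to 377 CPM in L2-3, from 3.85 to 20.9 CPM in L4 and from 2.82 to 13.6 CPM in L5-6, with -4.26 ± 0.23 and -4.94 ± 0.24. The lowest L2-3 value of all 3 genes came from GFP mouse 1 and the highest from huFOXP2 mouse 1.

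Type V collagen is a minor fibril component that sets fibril diameter. Its chain Col5a2 behaved like types I and III (24.4 to 87.3 CPM in L2-3, 7.8 to 12.4 CPM in L4, 6.16 to 12.1 CPM in L5-6). The partner chain Col5a1 (chromosome 2, 27886425 to 28039514) was at 9.55, 51.3 and 36.5 CPM in L2-3 of GFP mice 1 to 3, at 130 and 53.5 CPM in the huFOXP2 mice and at 38.5 CPM in the moFoxp2 mouse. In L4 it stood at 2.7, 5.85, 3.46, 3.56, 2.56 and 2.45 CPM, and in L5-6 at 16.6, 23.2, 15.4, 6.13, 19.2 and 8.13 CPM, in the same order. It was lowest in L4 in each mouse, and the log2 difference of L5-6 minus L4 was 2.16 ± 0.38 (adjusted p = 0.000603). Col11a1, a chain of type XI that joins type V in some tissues, showed the same order of layers, at 12.4 to 37.6 CPM in L2-3, 5.08 to 11.5 CPM in L4 and 6.68 to 23.8 CPM in L5-6 (L5-6 minus L4 0.89 ± 0.25, adjusted p = 0.0131, a call lost without the moFoxp2 mouse and in FOXP2 mice alone). Col27a1 and Col2a1 were also lower in L4 than in either other layer, and their L5-6 minus L2-3 differences of -0.05 and 0.07 did not pass the test. Col27a1 was at 2.5 to 6.45, 0.817 to 2.7 and 2.86 to 6.74 CPM in the 3 layers.

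Col24a1 and Col11a2 were the fibrillar members that rose in L5-6. Col24a1 encodes type XXIV collagen, a little-studied fibrillar chain first described in bone and cornea (chromosome 3, 145292472 to 145552011). It had 6, 6 and 2 counts in L2-3 of GFP mice 1 to 3, 8 and 1 in the huFOXP2 mice and 6 in the moFoxp2 mouse, and 80, 257, 108, 47, 123 and 129 counts in L5-6 in the same order. As CPM this was 0.086 to 0.439 in L2-3, 0.069 to 1.38 in L4 and 5.86, 12.03, 5.53, 3.2, 6.77 and 9.04 in L5-6. The L5-6 libraries were all above those of the other layers (L5-6 minus L2-3 4.52 ± 0.27, adjusted p = 1.493e-08, and L5-6 minus L4 4.15 ± 0.27, adjusted p = 1.625e-07). Its promoter window shown above lacks CCAAT and GGGCGG, which says only that these letters are not in that window. Col11a2, a type XI chain, stood at 3.42 to 10.6 CPM in L2-3 and at 34.2, 12.9 and 17.6 CPM in L5-6 of the GFP mice, 7.36 and 14.4 CPM in the huFOXP2 mice and 14.01 CPM in the moFoxp2 mouse (1.48 ± 0.18, adjusted p = 1.195e-05, higher in 6 of 6 mice). GFP mouse 1 had the highest L5-6 level of Col11a2. Col5a3, a further type V chain, passed the test in none of the 3 layer comparisons.

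The basement membrane class had 6 of 8 members lower and 1 higher in L4 than in L2-3 (median -2.01), and 7 lower and 1 higher in L5-6 than in L2-3 (median -1.5). Col4a1 and Col4a2 form the main type IV network of vessels. Col4a1 (chromosome 8, 11198423 to 11312826, minus strand) was at 376, 599 and 486 CPM in L2-3 of GFP mice 1 to 3, at 839 and 747 CPM in the huFOXP2 mice and at 892 CPM in the moFoxp2 mouse. It was at 156 to 210 CPM in L4 and at 187 to 286 CPM in L5-6, each library below all of L2-3. The log2 differences were -1.80 ± 0.12 for L4 minus L2-3 (adjusted p = 8.877e-08), -1.61 ± 0.12 for L5-6 minus L2-3 (adjusted p = 9.506e-08) and 0.19 ± 0.11 for L5-6 minus L4 (adjusted p = 0.195). Col4a2 (chromosome 8, 11312805 to 11449287, plus strand) ran from 238 to 522 CPM in L2-3, from 105 to 150 CPM in L4 and from 124 to 192 CPM in L5-6, with -1.54 ± 0.11 and -1.39 ± 0.11 against L2-3. Their first exons overlap slightly on opposite strands.

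Col4a5 and Col4a6, neighbouring X-linked chains, differed more between layers than Col4a1. Col4a6 was at 12.1 to 45 CPM in L2-3, 0.867 to 4.14 CPM in L4 and 1.33 to 4.4 CPM in L5-6 (-3.63 ± 0.25 and -3.54 ± 0.24 against L2-3), and Col4a5 at 34.2 to 116, 9.35 to 13.7 and 10.5 to 24.2 CPM (-2.63 ± 0.17 and -2.32 ± 0.17). Types XV and XVIII carry heparan or chondroitin sulphate chains and sit at basement membranes of vessels. Col18a1 was at 41 to 118 CPM in L2-3, 13.9 to 20.9 CPM in L4 and 15.2 to 27.6 CPM in L5-6. Col15a1 was at 14.55 to 35.3, 3.45 to 7.99 and 6.2 to 11.8 CPM, and was higher in L5-6 than in L4 (0.94 ± 0.15, adjusted p = 0.000337, 6 of 6 mice).

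Col4a3 and Col4a4, which with Col4a5 form the type IV network known from kidney and inner ear, did not follow. Col4a3 was at 0.795, 0.628 and 0.128 CPM in L2-3 of GFP mice 1 to 3, at 0.665 and 0.258 CPM in the huFOXP2 mice and at 1.02 CPM in the moFoxp2 mouse, and at 2.2, 2.06, 1.44, 1.43, 1.49 and 1.89 CPM in L5-6. The L5-6 libraries were all above those of L2-3 (1.57 ± 0.26, adjusted p = 0.000225). Its calls in L4 against L2-3 (0.92 ± 0.29, adjusted p = 0.0196) and in L5-6 against L4 (0.65 ± 0.24, adjusted p = 0.0441) were lost under 6 and 10 of the other settings tried. Exons of Col4a3 overlap those of C430014B12Rik on the opposite strand, and since the use of strand in the counting is not given, reads of that gene cannot be told apart there. Col4a4 stood at 4.29 to 5.59 CPM in L2-3 and was lower in L5-6 by a log2 difference of -0.36 ± 0.13 (adjusted p = 0.0373).

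**Figure D2:**
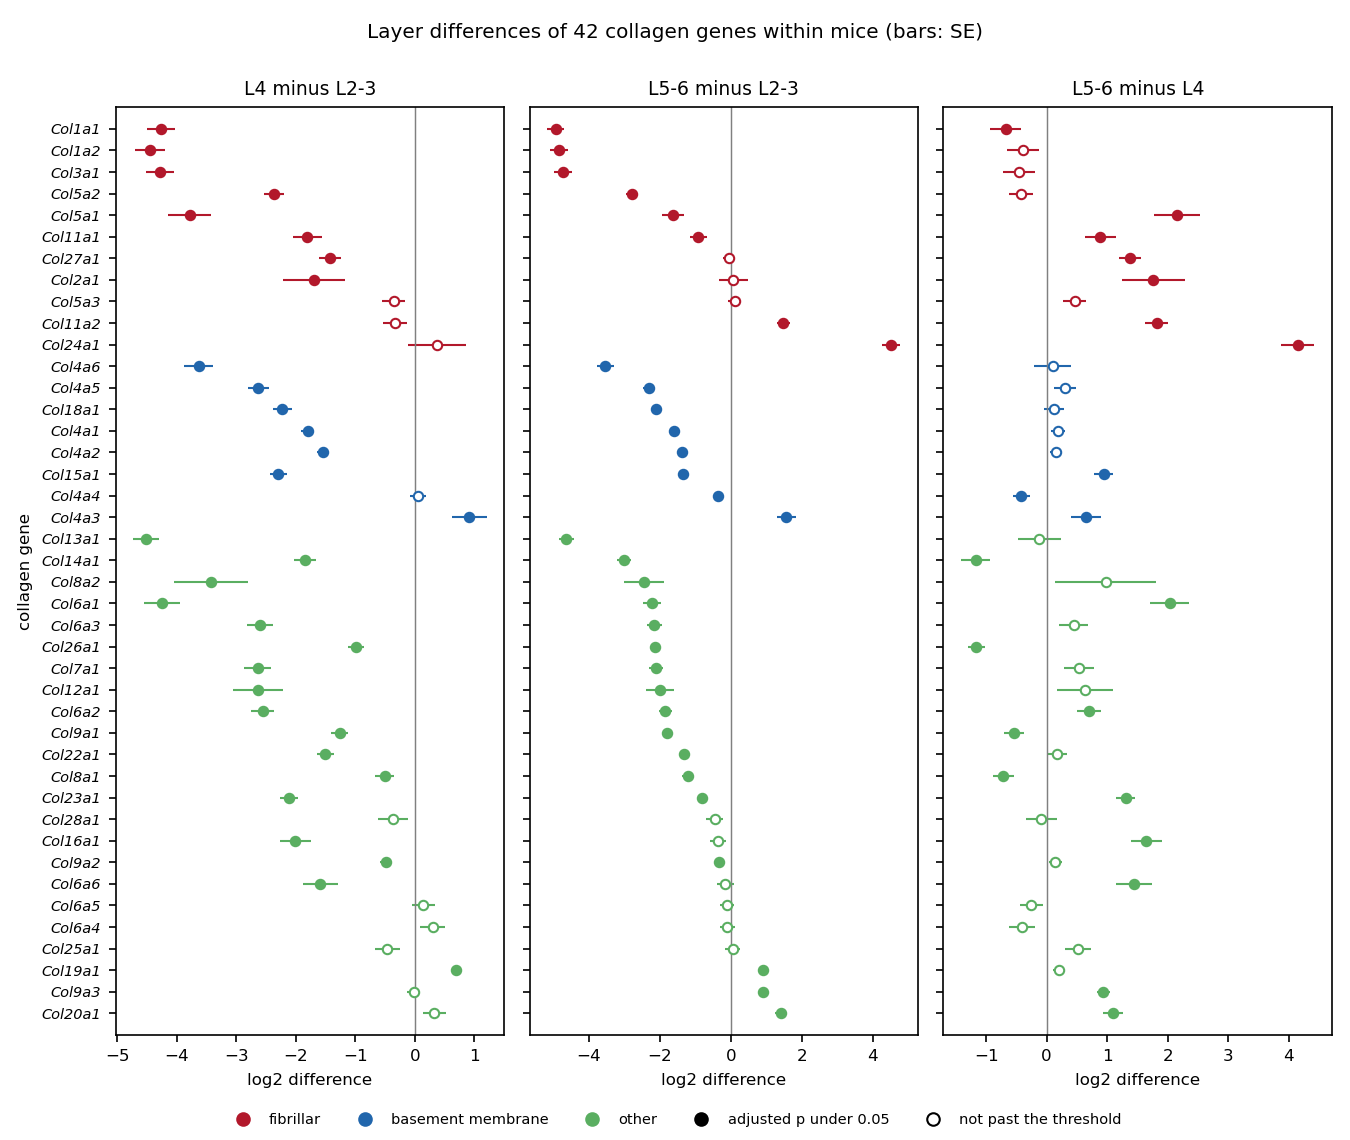
Log2 difference between layers (x axes, bars are SE) for each of the 42 collagens tested, ordered within class by L5-6 minus L2-3; filled points passed an adjusted p of 0.05. Types I and III lie near -4 to -5 in both comparisons with L2-3, Col24a1 lies at 4.52 and 4.15 in the comparisons with L5-6, and the type IV pair Col4a1 and Col4a2 lies near 0 between L5-6 and L4.

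Of the 23 other collagens tested, 16 were lower and 1 higher in L4 than in L2-3 (median -1.51), and 14 were lower and 3 higher in L5-6 than in L2-3 (median -1.22). In L5-6 against L4, 7 of the 23 were higher and 4 lower, near the shares over all genes (21.9% higher, 19.7% lower). Col6a1, the first chain of the beaded filaments of type VI (chromosome 10, 76708792 to 76726168, minus strand), was at 18.5, 61.7 and 53.5 CPM in L2-3 of GFP mice 1 to 3, at 134 and 85.1 CPM in the huFOXP2 mice and at 57.2 CPM in the moFoxp2 mouse. It was at 1.45 to 6.09 CPM in L4 and at 17.2, 15.2, 12.2, 8.04, 18.2 and 9.32 CPM in L5-6. Thus L4 was lowest in each mouse (L4 minus L2-3 -4.25 ± 0.30, adjusted p = 1.959e-07, L5-6 minus L4 2.03 ± 0.32, adjusted p = 0.000279). Col6a2 and Col6a3 were also lower in both deeper layers, by -2.55 ± 0.19 and -2.61 ± 0.22 in L4 and -1.85 ± 0.18 and -2.16 ± 0.21 in L5-6. Col6a2 ran from 26.9 to 124.8 CPM in L2-3, from 6.35 to 14.9 CPM in L4 and from 12.7 to 21 CPM in L5-6, and L2-3 overlapped neither. Col6a4 and Col6a5 did not pass the test in any layer comparison, with means of 1.26 to 1.95 CPM.

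Col13a1, a membrane-spanning collagen known from the neuromuscular junction (chromosome 10, 61838236 to 61979108, minus strand), fell most in L4 among all members. It was at 2.9, 6.9 and 5.7 CPM in L2-3 of GFP mice 1 to 3, at 10.3 and 14.3 CPM in the huFOXP2 mice and at 10.8 CPM in the moFoxp2 mouse, against 0.07 to 0.487 CPM in L4 and 0.14 to 0.477 CPM in L5-6. The L4 libraries held 1 to 8 counts. The log2 differences were -4.52 ± 0.21 (adjusted p = 9e-09) and -4.64 ± 0.21 (adjusted p = 1.433e-09). Col23a1, another membrane-spanning chain, was at 22.2 to 44.7, 5.3 to 9.73 and 11.5 to 24.6 CPM in L2-3, L4 and L5-6, so that its L4 libraries were all below the rest. Col25a1, known as the precursor of an amyloid plaque component, passed in none of the 3 comparisons.

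Col26a1 was lower in L4 than in L2-3 and lower again in L5-6. It was at 70.2, 74.7 and 82.9 CPM in L2-3 of GFP mice 1 to 3, at 132 and 111 CPM in the huFOXP2 mice and at 80.1 CPM in the moFoxp2 mouse, at 39.6 to 49.7 CPM in L4 and at 14.7 to 30.3 CPM in L5-6. The ranges of the 3 layers did not overlap, and the log2 difference was -0.99 ± 0.13 for L4 minus L2-3 (adjusted p = 4.032e-05) and -1.16 ± 0.14 for L5-6 minus L4 (adjusted p = 2.614e-05). Col14a1 and Col8a1 were likewise lower in L5-6 than in L4 (-1.17 ± 0.24, adjusted p = 0.00164, and -0.71 ± 0.17, adjusted p = 0.00424), each in 6 of 6 mice. Col14a1 ran from 3.18 to 11.5 CPM in L2-3, from 1.06 to 3.56 CPM in L4 and from 0.613 to 1.82 CPM in L5-6, and Col8a1 from 8.24 to 23.4, from 7.7 to 20.5 and from 5.05 to 8.26 CPM. The L4 minus L2-3 difference of Col8a1 was -0.51 ± 0.16 over all mice (adjusted p = 0.0199), a call lost without the mouse block and without GFP mouse 2, huFOXP2 mouse 1 or huFOXP2 mouse 2, and it was 0.11 in GFP mice alone (adjusted p = 0.805). The test of the difference between arms did not pass (-1.24 ± 0.32, adjusted p = 0.0876).

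The FACIT collagens went in both directions. Col9a3 (chromosome 2, 180597790 to 180622189), a type IX chain, was at 137.7, 56.9 and 62.3 CPM in L5-6 of GFP mice 1 to 3, at 40.2 and 44.6 CPM in the huFOXP2 mice and at 54.6 CPM in the moFoxp2 mouse. It was at 25.9 to 50 CPM in L2-3 and at 21.4 to 53.1 CPM in L4. It rose in L5-6 against both other layers in 6 of 6 mice (0.92 ± 0.11, adjusted p = 8.461e-06, and 0.93 ± 0.11, adjusted p = 1.911e-05). Its partner Col9a1 fell in L5-6 (-1.81 ± 0.15 against L2-3, adjusted p = 3.483e-07), and Col9a2, at 12.3 to 24.2 CPM over all libraries, had -0.34 ± 0.10 (adjusted p = 0.0138), a call lost without the mouse block, in GFP mice alone and without GFP mouse 3 or huFOXP2 mouse 1. Exons of Col9a3 overlap those of Tcfl5 on the opposite strand. Col19a1, known from a subset of neurons, was at 3.07 to 5.53 CPM in L2-3, 3.47 to 8.51 CPM in L4 and 5.05 to 10.02 CPM in L5-6. It rose in L4 (0.70 ± 0.10, adjusted p = 7.906e-05) and in L5-6 (0.90 ± 0.10, adjusted p = 4.507e-06) against L2-3, in 6 of 6 mice each time. Col20a1 rose in L5-6 (1.42 ± 0.17, adjusted p = 9.637e-06). Col16a1 was at 15.2 to 40.2 CPM in L2-3, 2.99 to 10.6 CPM in L4 and 9.34 to 39 CPM in L5-6, with GFP mouse 1 highest in L4 and in L5-6. Col12a1 and Col22a1 were lower in both deeper layers.

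Chains that assemble together need not be made in fixed proportion, and ratios of CPM per kb of partner chains within a library differed between layers. They are descriptions, with no test. The size of a ratio depends on the annotated exon lengths, which are the same in each layer. Col1a1 to Col1a2 had medians of 0.996, 1.10 and 1.09 in L2-3, L4 and L5-6, with a range of 0.948 to 1.22 in L2-3 that widened to 0.379 to 2.52 in L5-6, where both genes were low. Col4a1 to Col4a2 was 1.40 to 1.6 in L2-3, 1.13 to 1.32 in L4 and 1.17 to 1.38 in L5-6, lower in both deeper layers in 6 of 6 mice. Col6a1 to Col6a2 had medians of 1.99, 0.509 and 1.33. Col9a3 to Col9a1 went from a median of 3.38 in L2-3 to 8.4 in L4 and 26.03 in L5-6, and Col11a2 to Col11a1 from 0.328 to 1.16 and 2.16, both higher in L5-6 than in L2-3 in 6 of 6 mice. A type XI molecule in cartilage holds both of these chains together with Col2a1.

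**Figure D3:**
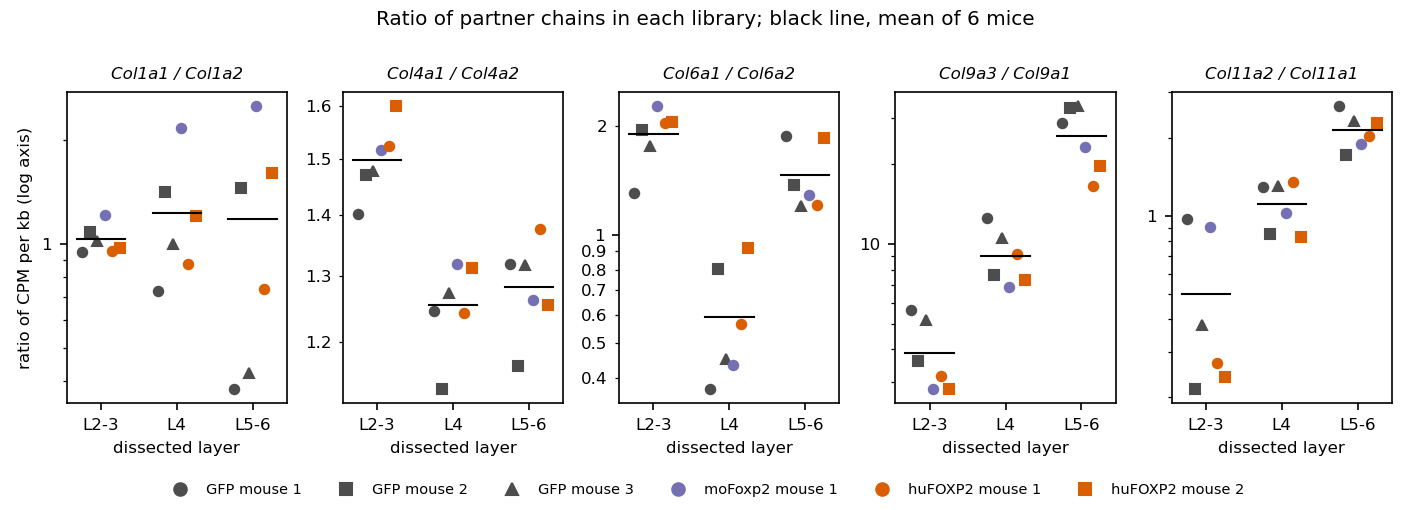
Ratio of CPM per kb of 5 pairs of partner chains in each library (log axes with different ranges) by layer; the black line is the mean of 6 mice. Type I stayed around 1 with a wider spread in the deeper layers, Col6a1 to Col6a2 was lowest in L4, and the type IX and XI ratios were highest in L5-6.

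Markers of other cell types moved with the layer differences. Beside the counts below, 21.3% of all genes were lower and 20.5% higher in L4 than in L2-3, and 21.9% lower and 21.6% higher in L5-6 than in L2-3. Of 15 meningeal fibroblast markers, 15 were lower in L4 and 15 in L5-6 than in L2-3 (medians -4.41 and -5.34), and none was at 0 in all libraries of a group. Their sum ran from 320 to 1573 CPM in L2-3, from 121 to 201 CPM in L4 and from 156 to 181 CPM in L5-6. Dcn, which encodes the fibril-binding proteoglycan decorin of such fibroblasts, was at 40.2 to 254 CPM in L2-3, 0.578 to 7.61 CPM in L4 and 0.49 to 1.69 CPM in L5-6. Of 12 endothelial markers 11 were lower in L4 and 11 in L5-6 (medians -1.12 and -1.04, sums of 594 to 1162, 276 to 419 and 288 to 509 CPM). Of 12 mural markers 11 were lower in L4 and 10 in L5-6 (medians -1.29 and -0.89). Oligodendrocyte lineage markers were higher in L5-6 than in L2-3 (10 of 12, median 1.42), with a sum of 5294 CPM in GFP mouse 1 against 1622 to 2828 CPM in the other L5-6 libraries. GFP mouse 1 was also the highest L5-6 library for all collagens summed (1023 CPM), with chains of each class among them (Col1a2, Col3a1, Col4a1, Col4a2, Col18a1, Col9a3, Col11a2 and Col16a1, for example). Its endothelial (509 CPM), mural (631 CPM) and astrocyte (5821 CPM) sums were the highest of L5-6 as well. Astrocyte markers had medians of -0.54 and -0.24. Bone and cartilage markers, which would come with skull, summed to 16.5 to 33.5 CPM in every library, with 2 higher and 2 lower of 6 tested in L4. One of them, Acan, was at 3.33 to 10.5 CPM in all libraries. The highest sum was in L2-3 of the moFoxp2 mouse, where the marker Bglap was at 4.32 CPM, against at most 0.279 CPM in any other library. That library also had the highest L2-3 levels of Col2a1 (1.98 CPM), Col9a1 (17.5 CPM), Col10a1 (0.658 CPM, 9 counts) and Col11a2 (10.6 CPM). Its Col9a2 was the lowest of L2-3 (13.53 CPM), and its Col11a1 (21.58 CPM) lay below both huFOXP2 mice (37.6 and 36.69 CPM). The bone and cartilage markers Sp7 (1.755 CPM) and Acan (4.901 CPM) were higher in L2-3 of GFP mice 3 (2.051 CPM) and 1 (5.285 CPM). Ttr, a choroid plexus marker, was at 14.99 CPM there, against at most 1.203 CPM in other L2-3 libraries. The part of these cell types in the collagen differences was not tested.

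**Figure D4:**
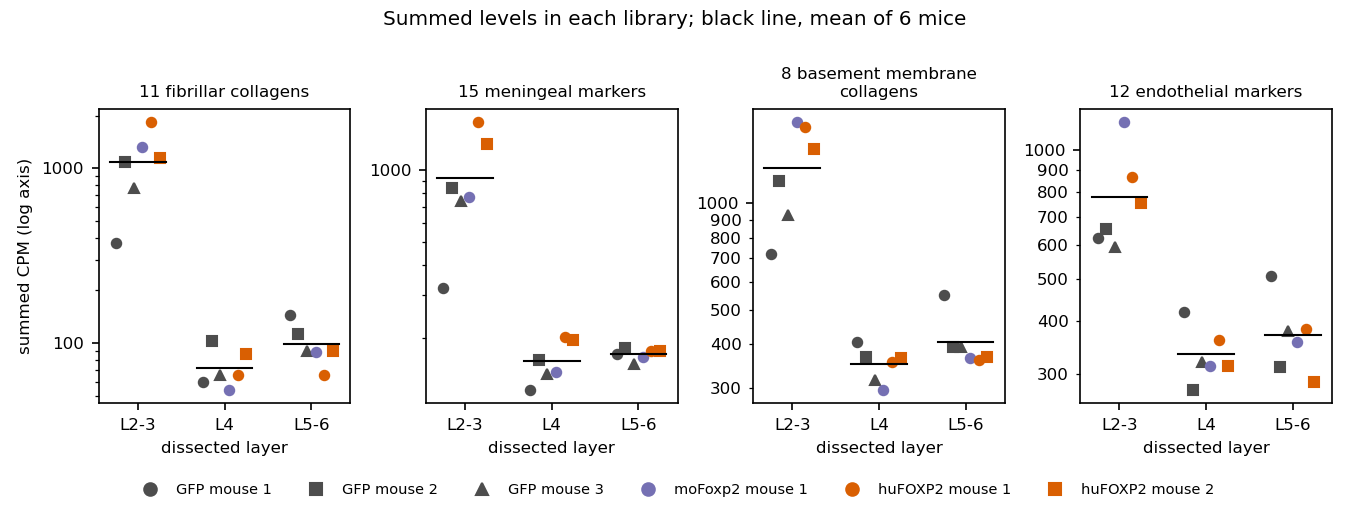
Summed CPM (log axes) of the fibrillar collagens, the meningeal markers, the basement membrane collagens and the endothelial markers in each library by layer; the black line is the mean of 6 mice. All 4 sums are highest in L2-3, and GFP mouse 1 has the lowest L2-3 value of the collagen and meningeal sums while huFOXP2 mouse 1 has the highest fibrillar and meningeal sum.

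The series was designed to compare FOXP2 with GFP, and no collagen passed the test in any layer. In L2-3, 0 of 41 members tested passed, with 34 above and 7 below 0 and a median log2 difference of 0.68 against -0.01 over all genes. At an unadjusted p under 0.05 there were 21, beside 2412 of all 15241 genes. DESeq2 called 11 higher, beside 490 of 14350 genes. By edgeR, 0.0722% of all genes passed. By class the medians were 0.75 for fibrillar, 0.84 for basement membrane and 0.65 for the other collagens. The smallest adjusted p was that of Col15a1, at 14.55, 19.9 and 17.6 CPM in GFP mice 1 to 3, 32.9 and 32.8 CPM in the huFOXP2 mice and 35.3 CPM in the moFoxp2 mouse (0.96 ± 0.13, adjusted p = 0.0569). The groups did not overlap in these 6 libraries. Col4a1 (376 to 599 CPM against 747 to 892 CPM) and Col18a1 (41 to 71.1 CPM against 98.8 to 118 CPM) did not overlap either. Their log2 differences were 0.77 ± 0.16 (adjusted p = 0.0956) and 0.92 ± 0.18 (adjusted p = 0.0932). Further members separated as well, among them Col4a2, Col4a5, Col7a1 and Col13a1, while others overlapped, among them Col1a1, Col3a1 and Col5a1. How many of all genes separated by arm in L2-3 was not counted, so the separation is given as a description only. Col1a2 had 0.98 ± 0.34 (adjusted p = 0.208), with GFP mouse 2 at 431 CPM next to huFOXP2 mouse 2 at 438 CPM.

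In L4, 0 of 37 members tested passed (0.0275% of all genes by edgeR), with a median of -0.10. At an unadjusted p under 0.05 there were 4, beside 457 of 14544 genes. DESeq2 called 1 lower, beside 23 of 13979 genes. Col6a2 had the largest fall, from 14.46 to 14.9 CPM in GFP mice to 6.56, 9.48 and 6.35 CPM in FOXP2 mice (-0.98 ± 0.18, adjusted p = 0.464). In L5-6, 0 of 41 passed (0.0196% of all genes by edgeR), with a median of -0.32 against -0.01 over all genes and 33 below 0. At an unadjusted p under 0.05 there were 6, beside 946 of 15330 genes, and DESeq2 called 0. Col9a3 had -0.89 ± 0.33 (adjusted p = 0.713).

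The markers moved alongside in L2-3. All 15 meningeal markers and all 12 endothelial markers were above 0 there in FOXP2 minus GFP (medians 1.04 and 0.58), with none past the test, and of 12 mural markers 11 were above 0 (median 0.54) and Acta2, smooth muscle actin, passed (1.11 ± 0.12, adjusted p = 0.0331). The meningeal sum was 320, 840 and 743 CPM in GFP mice 1 to 3, 1573 and 1279 CPM in the huFOXP2 mice and 773.5 CPM in the moFoxp2 mouse. The endothelial sum was 594 to 656 CPM in GFP mice and 752 to 1162 CPM in FOXP2 mice. Of 10 astrocyte markers 8 were above 0 (median 0.55), of 11 interneuron markers tested 11 (0.47), of 12 oligodendrocyte lineage markers 8 (0.24) and of 11 layer 5-6 neuron markers 7 (0.26). The layer 5-6 list holds Foxp2, the gene of the constructs, which is 1 of those 7 (2.78). Only 1 of 8 layer 2-3 neuron markers (median -0.41) and 1 of 6 layer 4 neuron markers (-0.84) were above 0, and none of the markers in these 6 lists passed. The layer 4 gene Rorb was at 206, 88.9 and 125 CPM in L2-3 of the GFP mice against 47.1, 41 and 59.7 CPM in the FOXP2 mice. In L5-6, 0 of 12 oligodendrocyte lineage (median -0.84), 0 of 12 endothelial (-0.21) and 0 of 11 mural markers tested (-0.37) were above 0. The same held for 1 of 10 astrocyte markers (-0.38) and 2 of 10 meningeal markers tested (-0.55). Above 0 there were 7 of 8 layer 2-3 neuron (0.41), 5 of 6 layer 4 neuron (0.34) and 8 of 12 interneuron markers (0.20). None of these passed in L5-6. The part of these differences in the collagen values was not tested.

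**Figure D5:**
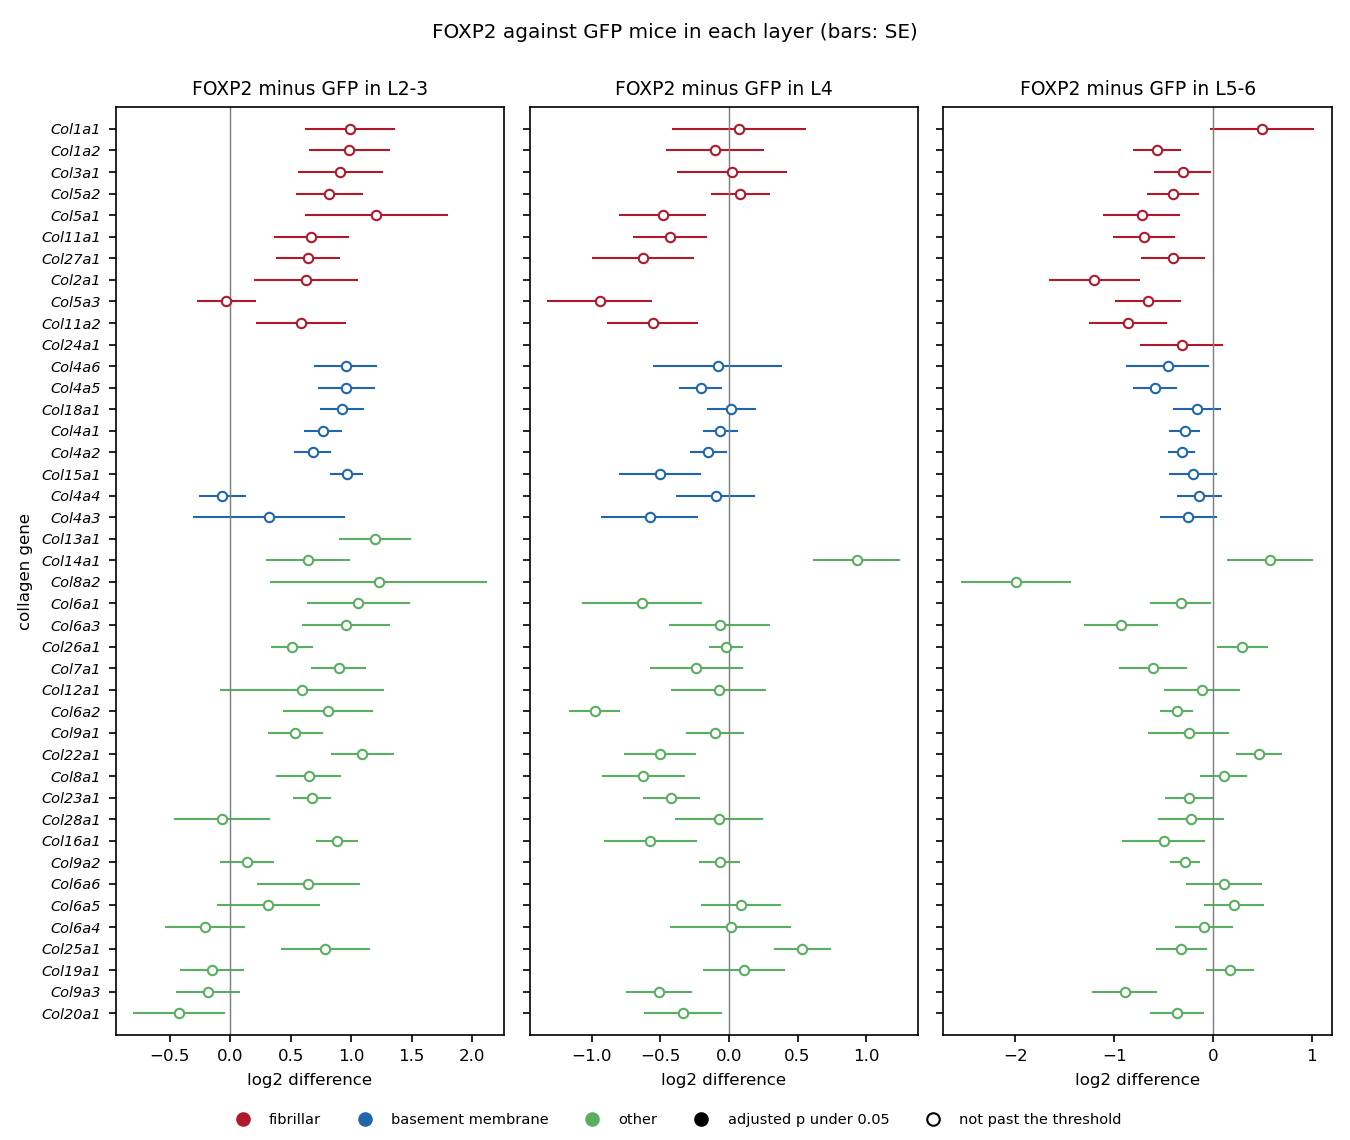
Log2 difference of FOXP2 minus GFP mice (bars are SE, 3 mice against 3) in each layer for the collagens tested there; all points are open because none passed an adjusted p of 0.05. In L2-3 most points lie above 0 (34 of 41), and in L5-6 most lie below (33 of 41).

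Whether the construct difference itself differed between layers was tested within mice. In L5-6 minus L2-3 the FOXP2 effect was lower for 15 of 42 members and higher for 0 (all genes: 8.66% lower, 6.75% higher), with a median of -0.98 against 0.00. The 15 were Col1a2, Col5a1, Col5a2, Col11a2 and Col27a1 of the fibrillar class, Col4a1, Col4a2, Col4a5, Col15a1 and Col18a1 of the basement membrane class, and Col6a2, Col6a3, Col7a1, Col9a3 and Col23a1. For Col4a5 the L2-3 level was 34.2, 74.7 and 53.1 CPM in GFP mice and 116, 97.9 and 99.6 CPM in FOXP2 mice, while in L5-6 it was 24.2, 15.2 and 15.4 CPM against 10.5, 11.9 and 14.1 CPM, so the groups changed places (-1.56 ± 0.33, adjusted p = 0.0128). For Col6a3 the L2-3 level was 9.43, 28.5 and 26.9 CPM against 49.4, 44.8 and 30.4 CPM and the L5-6 level 6.59, 13.1 and 7.74 CPM against 4.43, 2.92 and 7.29 CPM (-1.91 ± 0.41, adjusted p = 0.0136). Col7a1, the anchoring fibril collagen, was at 6.31, 12.4 and 10.06 CPM against 17.6, 15.98 and 19.7 CPM in L2-3 and at 5.71, 2.95 and 2.77 CPM against 2.04, 2.42 and 3.01 CPM in L5-6 (-1.47 ± 0.41, adjusted p = 0.0321).

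These 15 calls rested on the fit and on single mice. Without huFOXP2 mouse 1, 0 of the 15 passed, and without the mouse as a block 0 passed, with collagen medians of -0.80 and -0.99 against -0.98 over all mice. Calls over all genes were lost as well. They went from 1076 higher and 1381 lower to 1 higher and 0 lower without huFOXP2 mouse 1, and to 0 without the block. The collagen count was 7 without GFP mouse 1, 6 without GFP mouse 3, 7 without huFOXP2 mouse 2, 10 without the moFoxp2 mouse and 21 without GFP mouse 2. Over all genes these fits called 518 to 1840 lower. Col4a1, Col4a2, Col4a5 and Col15a1 were lost only under the 2 settings with no calls. huFOXP2 mouse 1 stood apart in its L2-3 meningeal sum, the highest of all, and in photoreceptor markers, which summed to 16.6 to 30.9 CPM in its 3 libraries against 1.72 to 3.95 CPM in the others; their part was not tested. In the same contrast 3 of 15 meningeal, 7 of 12 endothelial and 7 of 12 mural markers were lower (medians -1.64, -0.69 and -0.91). So were 6 of 10 astrocyte (-0.81) and 4 of 12 oligodendrocyte lineage markers (-0.84), while 6 of 8 layer 2-3 neuron (0.82) and 3 of 6 layer 4 neuron markers (1.19) were higher. Of all genes, 8.66% were lower and 6.75% higher. The part of these cell types was not tested. In L4 minus L2-3 the FOXP2 effect passed for 0 members (0% of all genes by edgeR), with a median of -0.95. At an unadjusted p under 0.05 there were 22, beside 2831 of 15952 genes. DESeq2 called 8 lower, beside 245 of 12550 genes. Both contrasts share the L2-3 libraries.

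Genes that make, cut, bind and degrade collagen were followed as well. Beside their counts, 21.3% of all genes were lower and 20.5% higher in L4 than in L2-3, 21.9% lower and 21.6% higher in L5-6 than in L2-3, and 21.9% higher and 19.7% lower in L5-6 than in L4. The 3 of 18 modification genes and 3 of 12 turnover genes that were higher in L5-6 than in L2-3 are near that background. Of 18 genes for chain modification and folding, 14 were lower and 1 higher in L4 than in L2-3 (median -0.50), and 9 were lower and 3 higher in L5-6 (median -0.14). Serpinh1, the collagen chaperone of the endoplasmic reticulum, had -1.55 ± 0.11 and -1.34 ± 0.11, and Fkbp10 and Crtap, partners of the hydroxylases, had -1.40 ± 0.10 and -1.47 ± 0.12 in L4. In L5-6 against L4, 9 were higher and 0 lower, among them the prolyl hydroxylase subunit P4ha3 (0.82 ± 0.10). Of 13 tested genes for procollagen cleavage and cross-linking, 10 were lower in L4 and 9 in L5-6 than in L2-3, with none higher. Pcolce, the enhancer of procollagen C-proteinase, had -3.79 ± 0.17 and -3.95 ± 0.17, and Lox, lysyl oxidase, -3.93 ± 0.30 and -4.65 ± 0.32, near the values of types I and III.

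Of 9 collagen receptors tested, 7 were lower in L4 and 6 lower and 1 higher in L5-6 than in L2-3. The integrin chain Itga11, a receptor for fibrillar collagen, had -3.70 ± 0.25 and -3.11 ± 0.22, and Ddr2, a discoidin domain receptor kinase, -2.29 ± 0.24 and -2.18 ± 0.23. Of 16 other basement membrane genes, 13 were lower in L4, and 13 lower and 1 higher in L5-6. The laminin chain Lamc3 had -3.26 ± 0.17 and -3.19 ± 0.17 and nidogen 2, Nid2, -2.34 ± 0.15 and -2.02 ± 0.14. Of 12 turnover genes 8 were lower in L4, and 5 lower and 3 higher in L5-6, with the gelatinase gene Mmp2 at -2.501 ± 0.15 and -1.77 ± 0.13 and Ctsk, which encodes the collagen-degrading protease cathepsin K, at -2.84 ± 0.17 in L5-6. In FOXP2 minus GFP in L2-3, 0 of these genes passed, with list medians from 0.33 to 0.72. In the FOXP2 effect of L5-6 minus L2-3, 11, 4, 6, 10 and 5 members of the 5 lists were lower and none higher (all genes: 8.66% lower, 6.75% higher). In this contrast the collagen calls fell to 0 without huFOXP2 mouse 1 or the mouse block, and over all genes no lower call was left either. Nid2 (-1.58 ± 0.28, adjusted p = 0.00989) and the membrane metalloproteinase Mmp14 (-1.09 ± 0.17, adjusted p = 0.0084) had among the smallest p there.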

How the data were processed

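The authors deposited raw read counts per gene for 18 libraries (10111149 to 23404528 in all), with no normalization. The submitters' processing notes name STAR, HTSeq and the build mm10. For versions, gene models and strand setting: not given in the sources used here. Groups came from the sample titles, and libraries of 1 construct and replicate number were taken as 1 mouse, since the labels state pooling by mouse. Layers of 1 mouse correlated at 0.263 to 0.673 (18 of 18 pairs above 0.1, 15952 genes, deviations from group means).

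Counts were tested with edgeR 4.0.16 (R 4.3.3) by the quasi-likelihood test, after TMM scaling and filterByExpr (minimum count 10, minimum total 15). Benjamini-Hochberg adjustment ran over all genes tested, threshold 0.05, and SE is the log2 difference over the square root of F. Layer contrasts used all libraries with the mouse as a block and average the GFP and FOXP2 layer differences. FOXP2 minus GFP used the 6 libraries of a layer. CPM use TMM over all 18 libraries. Alternatives were RLE size factors, no filter, DESeq2 1.42.0, no block, GFP or FOXP2 mice only, each mouse left out, the replicate number as a block, and 1 fit over 18 libraries. The fits were tested on simulated data. Positions and exon lengths are from GENCODE M21 (42 of 44 identifiers matched with version).

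The members, their classes and the 17 gene lists were chosen with earlier results of these data known. Values are given for the 6 members of highest mean CPM in each class, members past the threshold in a construct contrast, and the 3 per direction of largest fold in each layer contrast, plus up to 3 genes of smallest p per list. Other members named were chosen after their values were seen. Whether mice shared litters is not stated, so p-values cover the spread between these mice only. Interneuron markers, whose layer differences are not in the results, had 5 higher and 2 lower of 12 in L4 than in L2-3. Choroid plexus and ependyma markers, with only Ttr in the results, had 0 higher and 3 lower of 6 tested in L4 than in L2-3 (all genes: 20.5% higher, 21.3% lower). In L5-6 against L2-3 they had 2 higher and 3 lower (all genes: 21.6% higher, 21.9% lower). In the FOXP2 effect of L5-6 minus L2-3, 2 were lower (median -2.08, all genes 8.66% lower). Their L5-6 sum was 16.4 to 43.66 CPM in GFP mice, highest in GFP mouse 1, and 5.247 to 12.66 CPM in FOXP2 mice. Their part in the collagen values was not tested.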

Additional observations from a re-analysis of the deposited data

Results flagged for a closer look

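For 15 collagens the difference between FOXP2 and GFP mice was not the same in L5-6 as in L2-3 by the test of that difference itself (edgeR, mouse as a block). The log2 values, FOXP2 effect in L5-6 minus that in L2-3, were -1.65 for Col1a2, -1.99 for Col5a1, -1.19 for Col5a2, -1.40 for Col11a2 and -1.002 for Col27a1 among fibrillar chains. They were -1.035 for Col4a1, -0.98 for Col4a2, -1.56 for Col4a5, -1.20 for Col15a1 and -1.029 for Col18a1 among basement membrane chains. They were -1.15 for Col6a2, -1.91 for Col6a3, -1.47 for Col7a1, -0.66 for Col9a3 and -0.97 for Col23a1 among the others. None of the 15 passed without huFOXP2 mouse 1 or without the mouse block, and over all genes no lower call was left in either fit.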

How the results depend on the processing

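In the 3 layer contrasts the count of collagens past the threshold, both directions added, moved by at most 1.5 times under RLE size factors, DESeq2, GFP or FOXP2 mice only and each mouse left out. By direction it moved more: in L5-6 minus L4 the 6 lower became 3 in GFP mice only, 2 in FOXP2 mice only and 10 without GFP mouse 1, and in L4 minus L2-3 the 2 higher became 1 in FOXP2 mice only and without GFP mouse 2, GFP mouse 3, huFOXP2 mouse 1 or huFOXP2 mouse 2. Without the filter on low counts, L5-6 minus L4 went from 21 to 33, the FOXP2 effect of L5-6 minus L2-3 from 15 to 24 and of L4 minus L2-3 from 0 to 25, and FOXP2 minus GFP from 0 to 19 in L2-3, to 1 in L4 and to 3 in L5-6. Over all genes, the fit without the filter called 792 lower of 32664 in the FOXP2 effect of L4 minus L2-3. It called 583 higher of 28494 in FOXP2 minus GFP in L2-3. DESeq2 gave 8 in the FOXP2 effect of L4 minus L2-3, 11 in FOXP2 minus GFP in L2-3 and 1 in L4. Without the replicate block, the FOXP2 effect of L5-6 minus L2-3 gave 0, also over all genes. The layer contrasts gave 1 higher and 29 lower (L4 minus L2-3), 6 and 25 (L5-6 minus L2-3) and 14 and 3 (L5-6 minus L4). With each mouse left out, the FOXP2 effect of L5-6 minus L2-3 ranged from 0 to 21 and FOXP2 minus GFP in L2-3 from 0 to 2 (2 without GFP mouse 1). With the replicate block over numbers 1 and 2, FOXP2 minus GFP gave 0 in each layer. Same-numbered GFP and FOXP2 libraries correlated at -0.283 to 0.357 (4 of 9 above 0.1), a range that overlaps that of the layers of 1 mouse (0.263 to 0.673). Whether they share a litter or a batch cannot be told from these values, and the main fits did not pair them. Col8a1 in L4 minus L2-3 turned to 0.11 in GFP mice alone. The cause of these changes was not tested. A joint fit over 18 libraries gave 0 for FOXP2 minus GFP in each layer. In GFP mice alone the calls of Col5a1, Col11a1, Col23a1 and Col9a2 in L5-6 minus L2-3 were lost. Col1a1 in L5-6 minus L4 (-0.67, adjusted p = 0.0497) was lost under 9 settings. Members under about 1 CPM, such as Col24a1 and Col13a1 in L4, rest on 1 to 17 counts a library.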
